A study of Mus musculus with 6 samples.

Results

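The 10 genes described here are early genes of T cell activation (Nr4a1, Nr4a2, Nr4a3, Egr1, Egr2, Egr3, Cd69, Myc and Tnf) and Irf8, an interferon regulatory factor gene. They were taken by GENCODE vM21 gene name, and all 10, protein-coding genes of the mm10 build, were found among the 55450 genes of each deposited table and passed the filter on low counts. RNA abundance was measured by RNA-seq in mouse T helper 17 (Th17) cultures, the type of CD4 T cell that makes interleukin 17. The 6 libraries formed 3 groups of 2. In the first, cells carried a murine stem cell virus (MSCV) retrovirus with ADAR2 WT, the active adenosine deaminase of double-stranded RNA that Adarb1 encodes. In the second they carried ADAR2 E396A, its enzymatically dead form, and in the third the MSCV empty vector. All 3 groups shared the rest of the protocol. Naive CD4+ T cells of wild-type mice, from animals 8 to 12 weeks old, were activated through CD3 and CD28 with TGF-beta and IL-6. They were infected 24 h later and kept with TGF-beta and IL-6 for another 48 h, so RNA was taken at 72 h. The sources used here do not give the mouse strain, the promoter of the construct or the share of infected cells.

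There were 2 donor mice, A and B, each with 1 culture per group (n = 2 per group), so p-values measure the spread between these few cultures. No label ties a library column to a mouse: the pairing is the one with which the authors' Wald statistics were recovered to within 0.0001. Libraries held 16496328 to 21897166 reads assigned to genes, and each member had at least 544 reads in every library. Adarb1 was at 18422 and 18999 normalized counts with ADAR2 WT, 15644 and 14920 with ADAR2 E396A and 3672 and 3333 with the empty vector (donors A and B), where a normalized count is a read count divided by a library's size factor. All 8 T cell markers (Cd3e, Cd4 and others) and all 8 Th17 markers (Il17a, Il17f and others) were detected above the filter.

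When a T cell receptor is engaged, calcium and kinase signals reach NFAT, AP-1 and serum response factors within minutes, and genes that need no new protein are transcribed first. The NR4A nuclear receptors and the EGR zinc finger proteins are products of this first wave. Their transcripts fade unless the receptor keeps signalling, so they are widely used as readouts of recent antigen receptor signals. CD69, MYC and TNF follow the same signals, as surface marker, growth regulator and cytokine. IRF8 is best known for guiding the development of dendritic cells, monocytes and B cells, and it is also induced in activated T cells.

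RefSeq promoter windows (GRCm38.p6, the release of the mm10 build) were searched for 6 of the 10 genes, on both strands over the 250 bases before a start site. Where the table holds several windows (5 for Egr2 and 2 for Irf8), the one nearest the GENCODE gene start was used, so the matches hold for that start site. The NR4A windows are shown because these paralogues share a motif. The Irf8 window is shown because Irf8 alone passed a test of group differences, a call that depended on the setting. Capitals mark matches to any motif searched.
Nr4a1, chr15:101266596-101266845, plus strand: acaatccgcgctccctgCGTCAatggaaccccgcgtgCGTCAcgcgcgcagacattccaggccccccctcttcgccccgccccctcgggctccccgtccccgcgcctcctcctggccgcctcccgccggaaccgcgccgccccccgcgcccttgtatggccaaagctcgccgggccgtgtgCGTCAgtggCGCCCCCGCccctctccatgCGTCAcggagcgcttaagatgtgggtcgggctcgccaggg
Nr4a2, chr2:57124004-57124253, minus strand: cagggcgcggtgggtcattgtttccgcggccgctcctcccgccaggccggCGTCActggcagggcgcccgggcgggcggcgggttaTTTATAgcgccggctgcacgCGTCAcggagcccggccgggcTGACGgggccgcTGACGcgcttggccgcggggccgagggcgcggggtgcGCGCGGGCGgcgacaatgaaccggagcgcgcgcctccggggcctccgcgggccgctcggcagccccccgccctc
Nr4a3, chr4:48045055-48045304, plus strand: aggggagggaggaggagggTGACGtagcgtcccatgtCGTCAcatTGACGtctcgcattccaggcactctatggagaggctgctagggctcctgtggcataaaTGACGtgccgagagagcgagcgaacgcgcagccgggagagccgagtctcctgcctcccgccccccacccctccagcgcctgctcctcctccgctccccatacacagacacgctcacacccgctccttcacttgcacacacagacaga
Irf8, chr8:120736108-120736357, plus strand: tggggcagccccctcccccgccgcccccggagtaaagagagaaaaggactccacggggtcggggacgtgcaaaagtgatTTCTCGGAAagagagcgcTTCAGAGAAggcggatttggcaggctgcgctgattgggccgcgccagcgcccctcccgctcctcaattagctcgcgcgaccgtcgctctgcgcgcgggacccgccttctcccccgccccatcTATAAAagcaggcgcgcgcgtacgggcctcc

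The cyclic AMP response element (CRE) half-site TGACG, which CREB and ATF factors read, occurred 4 times in each of the 3 NR4A windows. At least 1 match was found in 17.8% and at least 4 in 0.137% of the 32851 promoter windows of the same length. The full CRE TGACGTCA, which contains the half-site, was found in none of the 6 windows searched (1.55% of all windows). This Irf8 window held 2 matches to the gamma-activated site TTCNNNGAA, read by STAT factors, at positions -171 and -153 from the start site. At least 1 such match was found in 7.02% of all windows, and the share with 2 was not counted. The Irf8 window also held a TATA box, TATAAA, at position -31 (12.4%). The Nr4a2 window matched it on the other strand, as TTTATA at position -164. The EGR site GCGNGGGCG was matched once each in the Nr4a1 and Nr4a2 windows (4.7% of windows). AP-1 TGANTCA (6.75%), the CArG box (1.47%) and the interferon-stimulated response element (2.98%) were matched in none of the 6 windows. The Egr2 window, not printed, held 2 overlapping NF-kB matches (7.25% of windows hold at least 1) and 1 E-box CACGTG (6.02%). The Tnf window held 1 TATA box. The Nr4a1 window lies 12577 bases inside the GENCODE gene, at a later start site. These matches describe the letters of the windows, and no binding was measured.

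**Figure D1:**
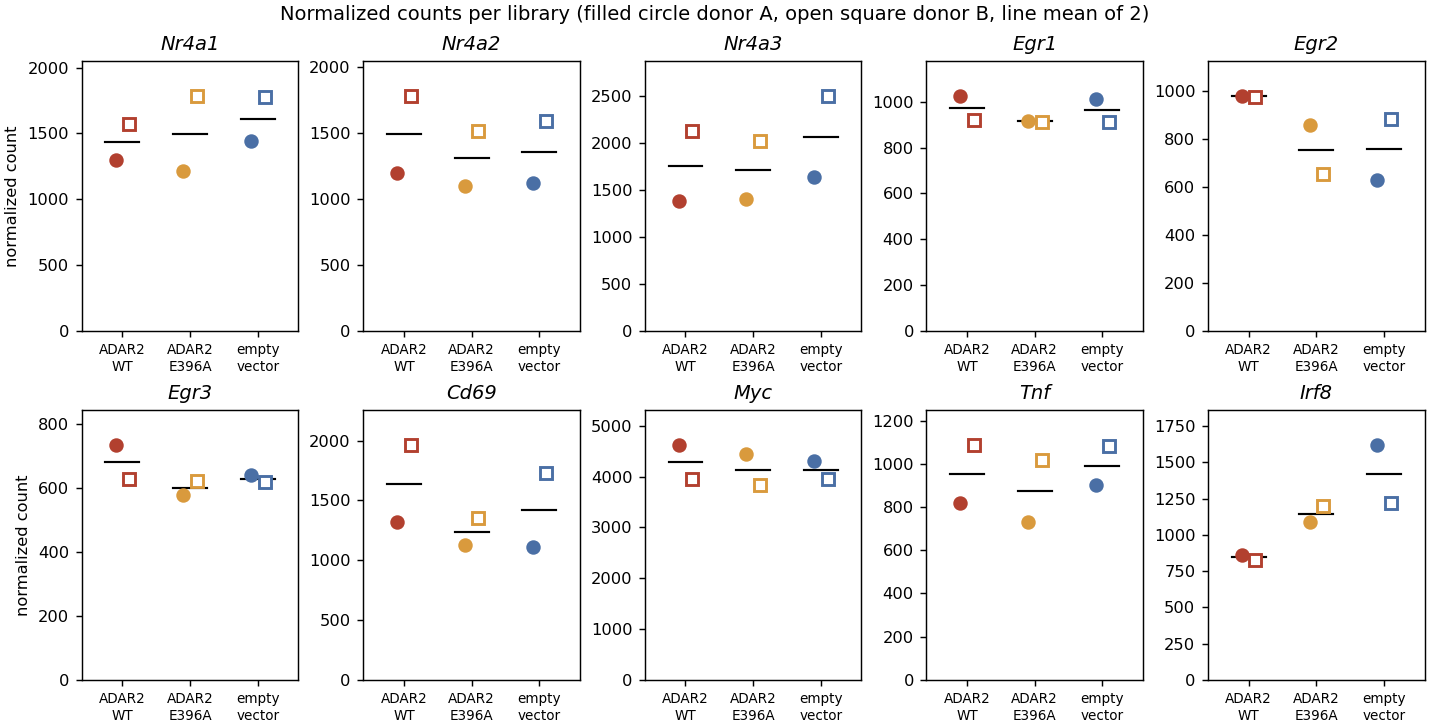
Normalized counts (vertical axis, from 0) of each gene in the 6 libraries, by group. Filled circles are donor A, open squares donor B and lines the means of 2 libraries. Irf8 is lowest in both ADAR2 WT libraries (862 and 827), and Nr4a2, Nr4a3 and Cd69 are lower in donor A in all 3 groups.

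Irf8 (ENSMUSG00000041515.10, chromosome 8, 120736358 to 120756694, plus strand) was the 1 member that passed the test in any comparison. It was at 862 and 827 normalized counts with ADAR2 WT, 1091 and 1202 with ADAR2 E396A, and 1618 and 1219 with the empty vector (donors A and B). The ADAR2 WT libraries were lower than the other 4, and the ADAR2 E396A libraries lay between them and the empty-vector libraries. With ADAR2 WT, Irf8 fell to 0.602 times its empty-vector level, a log2 fold change of -0.73 (SE 0.12, 95% interval -1.01 to -0.46, limma adjusted p = 0.0416). The difference within donor A was -0.91 and within donor B -0.56 on the log2 scale. In the authors' deposited table, whose sign runs from construct to empty vector, Irf8 had a log2 fold change of 0.734 with an adjusted p of 0.000198. An annotated gene that overlaps Irf8, Gm20388, had 0 reads in all libraries.

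That call rests on few libraries. The limma adjusted p was 0.583 without the donor term, 0.413 without a mean-variance trend and 0.0556 among genes averaging 50 normalized counts or more. For Irf8 it was 0.808 and 0.337 when the ADAR2 WT culture of donor A or of donor B was left out, and leaving out the empty-vector culture of donor A, whose 1618 was the highest Irf8 value, gave 0.0990. Each of the lost calls kept a negative fold change.

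Irf8 is also a gene of B cells, monocytes and dendritic cells, and in bulk RNA fewer cells of a type and less RNA per cell cannot be told apart. Of 12 myeloid and dendritic markers 5 passed the filter on low counts, and all 12 summed to 221 to 254 normalized counts with ADAR2 WT, 200 to 271 with ADAR2 E396A and 228 to 249 with the empty vector. The 5 that passed included Zbtb46 (97 to 128 reads per library), Flt3 (29 to 77) and Cd68 (34 to 70). Cd14 (4 to 30 reads) and Xcr1 (9 to 16) passed too. Clec9a and Siglech, markers of dendritic cells, had 0 reads in every library. Of 8 B cell markers 3 passed the filter, and all 8 summed to 859 to 1320.0, 759 to 1242, and 794 to 1173 in the same order of groups, nearly all of it Ebf1. Cd79a (7 to 40 reads per library) and Cd79b (16 to 25) passed beside Ebf1, while Ms4a1 and Blk had 0 reads in every library. Of 7 CD8 and NK cell markers 6 passed the filter, and 3 of them (Klrc1, Klrk1 and Klrd1, which encode NK receptor chains) fell with ADAR2 WT against empty vector, where 0.374% of all genes did. Cd8a, Cd8b1 and Eomes did not pass. All 7 summed to 517 to 637 with ADAR2 WT, 1211 to 1716 with ADAR2 E396A and 1500.0 to 1686 with the empty vector; Ncr1 had 0 reads throughout, and their part in the Irf8 result was not tested.

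Irf8 did not pass in the other comparisons that involve it. With ADAR2 E396A against empty vector its log2 fold change was -0.29 (SE 0.12, 95% interval -0.57 to -0.018, limma adjusted p = 0.999), with -0.57 in donor A and -0.021 in donor B. Between ADAR2 WT and ADAR2 E396A it was -0.44 (SE 0.12, 95% interval -0.71 to -0.16, limma adjusted p = 0.216), with -0.34 and -0.54 in donors A and B. Irf8 was thus lower with ADAR2 WT than with ADAR2 E396A in both donors without passing over all genes. When the ADAR2 E396A culture of donor B was left out, Irf8 passed with ADAR2 E396A against empty vector (log2 fold change -0.48). With any other library left out Irf8 did not pass there, and over these fits its fold change ran from -0.52 to -0.072. Between the constructs Irf8 passed when the ADAR2 E396A culture of donor A or an empty-vector culture was left out. It did not pass with another library left out, and its fold change between the constructs ran from -0.63 to -0.26.

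None of the 9 activation genes passed in any of the 3 comparisons. With ADAR2 WT against empty vector, 1 of 10 members had a limma adjusted p below 0.05, Irf8, where 0.816% of the 14958 genes tested did (0.374% lower and 0.441% higher). Fold changes were positive for 6 members and negative for 4, and their log2 median was 0.033, against -0.0025 over all genes tested. Both donors moved the same way in 8 members (62.7% of all genes did so), 5 higher (31.2%) and 3 lower (31.5%). Nr4a3 and Irf8 had an unadjusted p under 0.05 (14.1% of all genes). The groups did not overlap for Egr2 and Irf8, 2 of 10, where 37.2% of all genes did not.

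Against empty vector, ADAR2 E396A changed no member past the threshold by limma, edgeR or DESeq2, and 2 members, Nr4a3 and Irf8, had an unadjusted p under 0.05. Over all genes 0.0134% passed (0.00669% in each direction) and 3.89% had such an unadjusted p. Of the 10 members 8 had a negative fold change and 2 a positive one, with a median of -0.098 on the log2 scale, against -0.0095 over all genes. The donors moved opposite ways in 6 members and both lower in 4 (23.9% of all genes were lower in both, and 45.3% of all genes moved the same way in both donors). Between ADAR2 WT and ADAR2 E396A no member passed by limma, edgeR or DESeq2 either (0.0669% of all genes passed, 0.0134% higher and 0.0535% lower). Nr4a2, Cd69 and Irf8 had an unadjusted p under 0.05 (12.4%). Here 8 members were positive, 7 of them in both donors (32.9% of all genes), and 1 was lower in both (29.6%; 62.5% of all genes moved the same way in both), with a median of 0.11, against 0.0044 over all genes. The groups did not overlap for Egr1, Egr2, Egr3 and Irf8 (4 of 10, against 36.7% of all genes), and for Irf8 alone between ADAR2 E396A and empty vector (23.4%). The comparisons share libraries, so their values are set side by side and not as separate evidence.

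**Figure D2:**
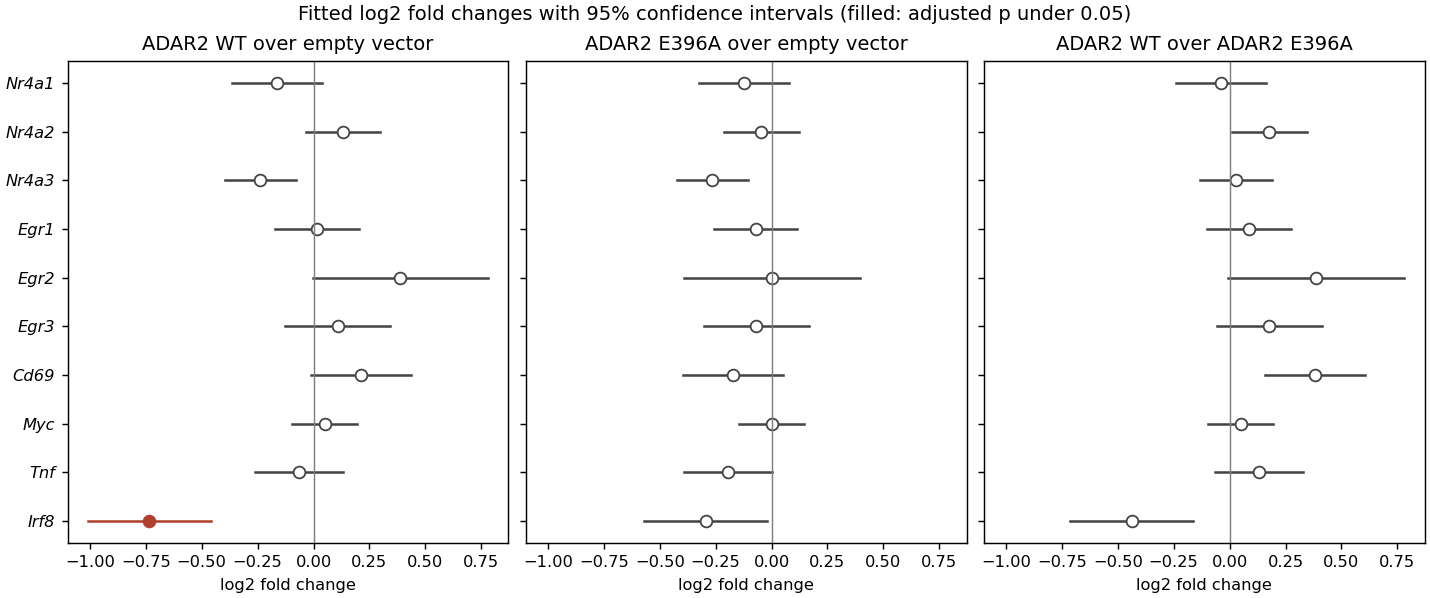
Fitted log2 fold change (horizontal axis) of each gene in the 3 comparisons, with 95% confidence intervals from limma, unadjusted for multiple genes. The 1 filled point is Irf8 with ADAR2 WT against empty vector (-0.73); all other points are open. A gene passed where its adjusted p was below 0.05.

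The NR4A genes encode orphan nuclear receptors that bind DNA without a known natural hormone and restrain T cell effector functions when signals persist. Nr4a3 (chromosome 4, 48045153 to 48086447, plus strand) was at 1379 and 2129 normalized counts with ADAR2 WT, 1400 and 2016 with ADAR2 E396A, and 1633 and 2497 with the empty vector (donors A and B). Within each donor both constructs were below the empty vector. Donor B was higher than donor A throughout, and the ranges of the groups overlapped. Nr4a3 had a log2 fold change of -0.24 against empty vector for ADAR2 WT (SE 0.070, limma adjusted p = 0.189) and -0.27 with ADAR2 E396A (SE 0.070, limma adjusted p = 0.999). Between the constructs Nr4a3 differed by 0.028 (95% interval -0.13 to 0.19).

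Nr4a1 (chromosome 15, 101254269 to 101274795, plus strand), also called Nur77 and a common reporter of receptor signal strength, was at 1301 and 1572.5 with ADAR2 WT, 1211 and 1782.5 with ADAR2 E396A, and 1440.3 and 1780.2 with the empty vector. It was lower with ADAR2 WT than with empty vector in both donors, while with ADAR2 E396A this held in donor A only. Its log2 fold changes were -0.16 (SE 0.088, limma adjusted p = 0.447) and -0.12 (SE 0.088, limma adjusted p = 0.999). Nr4a2 (chromosome 2, 57106830 to 57124003, minus strand) was at 1200.0 and 1779 with ADAR2 WT, 1099 and 1517 with ADAR2 E396A, and 1118.5 and 1590.3 with the empty vector. It was the NR4A gene with a positive fold change for ADAR2 WT, 0.13 (SE 0.073, limma adjusted p = 0.460), against -0.047 for ADAR2 E396A (SE 0.073). Between the constructs Nr4a2 was 0.18 higher with ADAR2 WT (95% interval 0.011 to 0.35, limma adjusted p = 0.372).

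EGR proteins are zinc finger factors of the immediate early response, and EGR2 and EGR3 also act as brakes on activated T cells. Egr2 (chromosome 10, 67535475 to 67542188, plus strand) was at 978 and 976 normalized counts with ADAR2 WT, 856 and 652 with ADAR2 E396A, and 629 and 884 with the empty vector (donors A and B). Both ADAR2 WT libraries were above the other 4, which overlapped each other. Egr2 had a log2 fold change of 0.39 with ADAR2 WT against empty vector (SE 0.17, 95% interval -0.0042 to 0.78, limma adjusted p = 0.358), made of 0.64 in donor A and 0.14 in donor B. With ADAR2 E396A the donors went opposite ways, 0.44 in donor A and -0.44 in donor B, and the fitted change was 0.0025 (SE 0.17). Between the constructs Egr2 was 0.39 higher with ADAR2 WT (95% interval -0.0067 to 0.78, limma adjusted p = 0.413). Egr2 passed with ADAR2 WT against empty vector when the 4 libraries of that comparison were fitted alone (limma adjusted p = 0.00141). Leaving out an ADAR2 E396A culture had the same effect on Egr2 (limma adjusted p = 0.0186 for donor A, 0.00171 for donor B), as had leaving out the empty-vector culture of donor B (0.0149). Between the constructs Egr2 passed with the ADAR2 E396A culture of donor A left out (0.000953).

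Egr1 was at 1024 and 922 normalized counts with ADAR2 WT, 916 and 913 with ADAR2 E396A, and 1014 and 911 with the empty vector. The 6 values lay closer together than those of any NR4A gene, and the fold changes were 0.016 with ADAR2 WT (SE 0.082) and -0.072 with ADAR2 E396A (SE 0.082) on the log2 scale. Egr3 (chromosome 14, 70077203 to 70082614, plus strand) was at 734 and 628 with ADAR2 WT, 577 and 623 with ADAR2 E396A, and 640.5 and 618 with the empty vector. Its highest value, in the ADAR2 WT library of donor A, stood above 5 values between 577 and 640.5. The fold changes of Egr3 were 0.11 and -0.069 against empty vector (SE 0.10 for each). Neither gene passed in any comparison, with limma adjusted p between 0.522 and 0.999.

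Cd69 (chromosome 6, 129267325 to 129275436, minus strand) encodes an early activation antigen that holds T cells in tissue by pulling the egress receptor S1PR1 from the surface. It was at 1320.4 and 1961 normalized counts with ADAR2 WT, 1124 and 1354 with ADAR2 E396A, and 1113 and 1733.5 with the empty vector (donors A and B). In each donor the ADAR2 WT library was the highest of the 3, and donor B was above donor A in each group. Cd69 had a log2 fold change of 0.21 for ADAR2 WT (SE 0.098, 95% interval -0.012 to 0.44, limma adjusted p = 0.379) and -0.17 with ADAR2 E396A (SE 0.098, 95% interval -0.40 to 0.052, limma adjusted p = 0.999). Between the constructs Cd69 was higher with ADAR2 WT by 0.38 (SE 0.098, 95% interval 0.16 to 0.61), which did not pass over all genes (limma adjusted p = 0.191). That contrast of Cd69 passed when the ADAR2 E396A culture of donor A or an empty-vector culture was left out. It did not pass when an ADAR2 WT culture or the ADAR2 E396A culture of donor B was left out. Over these fits the log2 fold change of Cd69 ran from 0.21 to 0.55.

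Myc (chromosome 15, 61985391 to 61990374, plus strand) encodes the transcription factor that drives growth and metabolism of activated T cells. Its normalized counts were 4618.5 and 3955 with ADAR2 WT, 4442 and 3839.6 with ADAR2 E396A, and 4309 and 3956 with the empty vector. Donor A was higher in each group, and within donor B the ADAR2 WT and empty-vector libraries differed by 1 normalized count. The log2 fold changes of Myc were 0.050 with ADAR2 WT (SE 0.063, 95% interval -0.095 to 0.19) and 0.00038 with ADAR2 E396A (SE 0.063, 95% interval -0.14 to 0.15). Those intervals were the narrowest among the 10 genes. Tnf (chromosome 17, 35199381 to 35202007, minus strand) encodes tumour necrosis factor, an inflammatory cytokine that T cells release soon after activation. Its normalized counts were 821 and 1087 with ADAR2 WT, 730.0 and 1021 with ADAR2 E396A, and 904 and 1082 with the empty vector. The ADAR2 E396A library was the lowest in each donor, and the log2 fold change of Tnf was -0.066 for ADAR2 WT (SE 0.086, limma adjusted p = 0.778) and -0.20 with ADAR2 E396A (SE 0.086, limma adjusted p = 0.999).

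**Figure D3:**
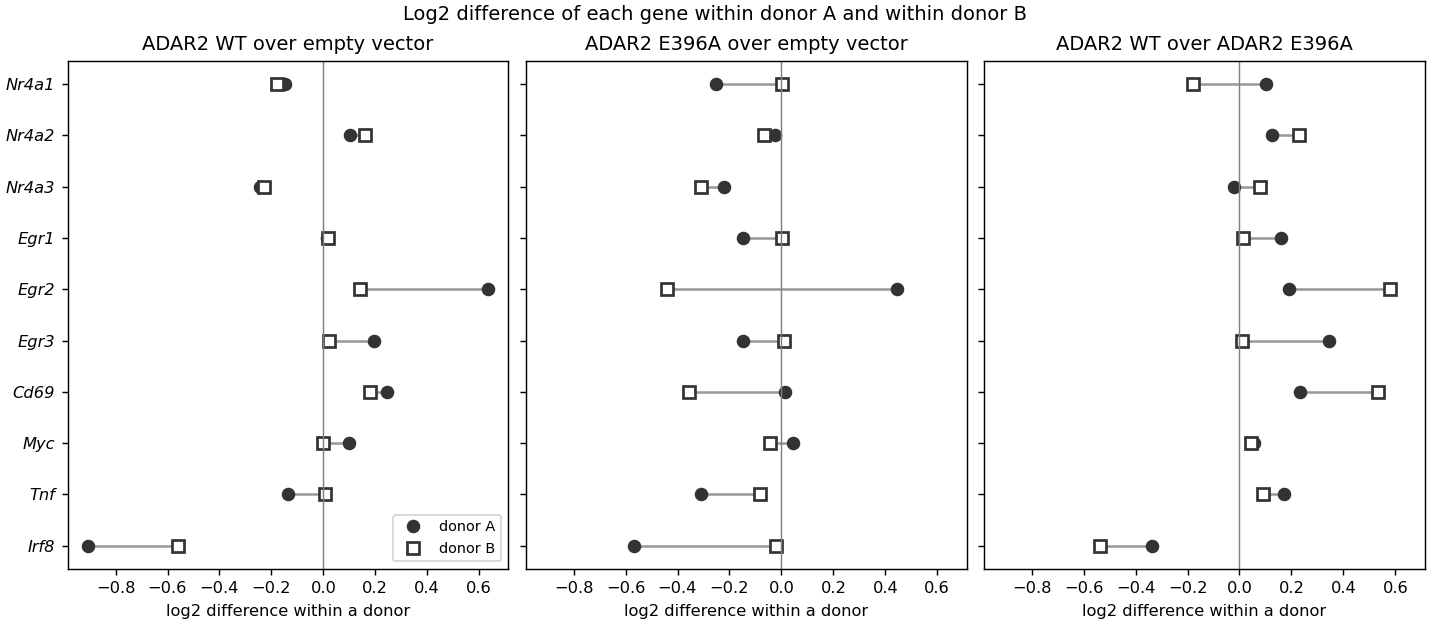
Log2 difference of each gene (horizontal axis) within donor A (filled circles) and donor B (open squares), for the 3 comparisons. With ADAR2 E396A over empty vector, Egr2 is at 0.44 in donor A and -0.44 in donor B; with ADAR2 WT over empty vector, Irf8 is below 0 in both.

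The cultures of the donors differed by more than the constructs did for several members. In donor A against donor B, Nr4a3 was lower by 0.63 with ADAR2 WT, 0.53 with ADAR2 E396A and 0.61 with the empty vector on the log2 scale. Nr4a2 was lower by 0.57, 0.46 and 0.51, and Cd69 by 0.57, 0.27 and 0.64, in the same groups. Nr4a1 and Tnf were also lower in donor A in all 3 groups, which makes 5 of 10 members, where 21.8% of all genes tested were. Egr1 and Myc were higher in donor A in all 3 groups, 2 of 10, where 22.3% of all genes were. Egr2, Egr3 and Irf8 were mixed, and Irf8 was 0.060 higher in donor A with ADAR2 WT, 0.14 lower with ADAR2 E396A and 0.41 higher with the empty vector. Mouse and culture cannot be told apart with 1 culture per mouse and group.

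Levels of different genes were compared per kb of exon, as normalized counts divided by the union of annotated exons. That union ran from 1639 bases for Tnf to 7055 for Irf8, with 6509 for Cd69. It counts every annotated exon and can exceed the length of the transcript in use, so the order of the genes depends on it. With ADAR2 WT, Myc was the highest member at 1456 to 1700 per kb, then Tnf at 501 to 663 and Nr4a1 at 371 to 448, and these 3 did not overlap. Nr4a1, Nr4a2, Nr4a3, Egr2, Cd69 and Egr1 each overlapped the next in that order, with means from 409.5 down to 217. Egr3 (142.5 to 167) and then Irf8 (117 to 122) stood below them without overlap, so Irf8 was last. With ADAR2 E396A the first 6 places were the same, but Tnf (445 to 623) overlapped Nr4a1 (345 to 508). From Tnf down to Cd69 each gene overlapped the next. Irf8 (155 to 170.4) stood above Egr3 (131 to 141), again without overlap. With the empty vector, Myc was at 1456 to 1586 per kb, above 96.9% of the genes tested by its mean, and Tnf and Nr4a1 followed at 551.5 to 660.1 and 410.5 to 507. Nr4a1 overlapped Nr4a3 (273 to 417), which overlapped Nr4a2, and Nr4a2 (276 to 392) stood clear of Egr2 (185 to 260.2). Egr2, Cd69, Egr1 and Irf8 overlapped from each to the next, and Irf8 (173 to 229) lay above Egr3 (140.4 to 145), whose mean was above 63.3% of the genes tested.

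**Figure D4:**
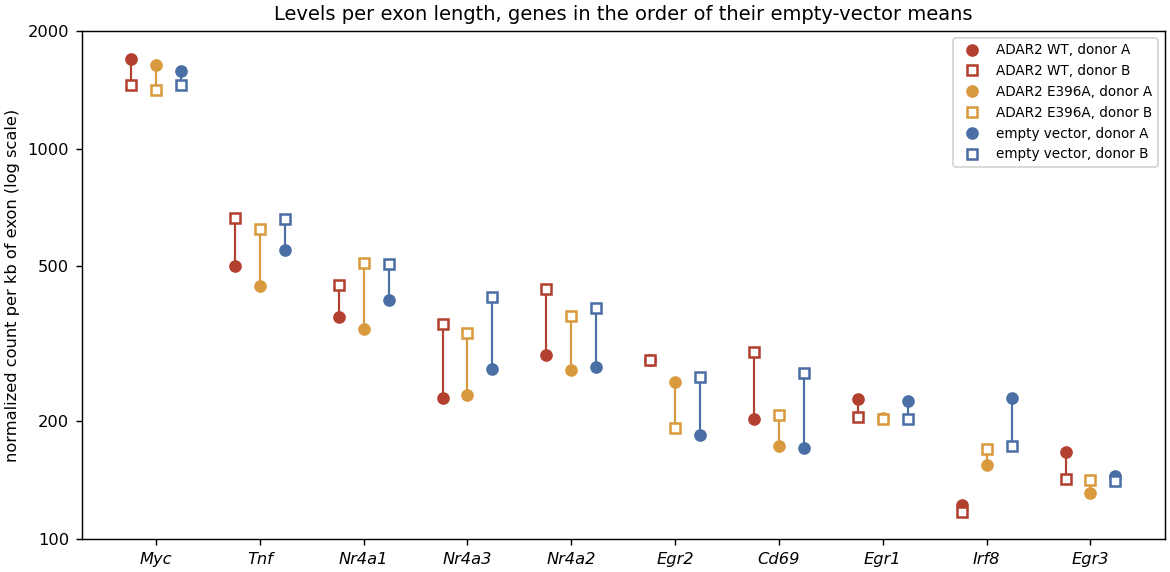
Normalized counts per kb of exon (vertical log axis) for the 10 genes, with filled circles for donor A and open squares for donor B joined by a line, in ADAR2 WT, ADAR2 E396A and empty-vector libraries from left to right. Myc is highest in every group, and Irf8 has a mean of 119.7 with ADAR2 WT, 162.5 with ADAR2 E396A and 201 with the empty vector.

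The likeness of profiles was taken as Pearson's r of log2 levels over the 6 libraries after each donor's mean was removed, a description over 6 points that share depth and scaling. Among the members, Nr4a2 was most like Cd69 (r = 0.925), Egr2 like Myc (r = 0.921), Egr1 like Egr3 (r = 0.866), Tnf like Egr1 (r = 0.822) and Irf8 like Nr4a1 (r = 0.802). The lowest value was that of Egr2 and Irf8 (r = -0.858). None of the NR4A genes was most like another of them: Nr4a3 was most like Irf8 (r = 0.639) and Nr4a2 had r = -0.735 with Irf8. Of 10036 other protein-coding genes averaging 50 normalized counts or more, the 2 most like Irf8 were Setd7 (r = 0.9988) and Arf5 (r = 0.9987). For Egr2 they were Slc19a2 and Hist1h2ae, for Myc E4f1 and Immt, for Cd69 Mrpl20 and Cflar, and for Tnf Bmyc and Stat5a. For Nr4a1 they were Ppdpf and Gnb2, for Nr4a2 Cops8 and Ifi47, for Nr4a3 AU022252 and Rabac1, and for Egr3 Trappc4 and Xxylt1. These values of r lay between 0.993 and 0.9999. They are the highest of 10036 over 6 points, fewer of which are free once the donor means are removed. Whether chance gives such values was not tested.

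Other genes of the activation pathway were described from 9 lists. With ADAR2 WT against empty vector, none of 19 immediate early and AP-1 genes passed, and their log2 median was 0.033, against -0.0025 over all genes tested. Zfp36l2, an RNA-binding protein that destabilises AU-rich transcripts, had the smallest p there and a fold change of 0.31 (limma adjusted p = 0.159). None of 20 feedback inhibitors passed (median -0.077), with the smallest p for Cblb, a ubiquitin ligase that restrains T cell receptor signals, at -0.54 (SE 0.11, limma adjusted p = 0.0699). Cblb did pass by DESeq2 (adjusted p = 0.000626), with TMM factors (0.0358) and without a filter (0.0221). It also passed in the 4 libraries alone (limma adjusted p = 3.11e-11), a fit that called 1237 genes. None of 21 receptor signalling genes passed (median -0.10), where 16 were negative and Plcg1, the phospholipase that starts the calcium signal, had -0.33 (limma adjusted p = 0.193). None of 21 measured activation markers and cytokines passed (median 0.086). Cd44, an adhesion receptor that stays high on activated cells, came nearest at -0.29 (limma adjusted p = 0.106).

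Members of 2 lists close to Tnf and Irf8 did pass with ADAR2 WT. Of 15 TNF ligands, receptors and adaptors 1 rose and 2 fell (median -0.20), where 0.441% and 0.374% of all genes did. The lists were chosen with earlier results of these data known, so these shares do not test a list. Tnfsf8, the CD30 ligand gene, was at 4108 and 5698 normalized counts with ADAR2 WT, 2673 and 3636 with ADAR2 E396A, and 2283 and 4136 with the empty vector, and rose by 0.65 (SE 0.10, limma adjusted p = 0.0362). Birc2, a ubiquitin ligase of TNF receptor complexes, was at 1292 and 1277, 1813 and 2060.0, and 2294 and 1796 in the same order, and fell by 0.66 (SE 0.12, limma adjusted p = 0.0486). Traf1, an adaptor of TNF receptors, fell by 0.40 (SE 0.070, limma adjusted p = 0.0486). Of 12 measured IRF family and partner genes (median 0.17) Irf7 alone passed. It was at 321 and 749 normalized counts with ADAR2 WT, 249 and 539.5 with ADAR2 E396A, and 168 and 365 with the empty vector, and rose by 0.98 (SE 0.10, limma adjusted p = 0.0125), the opposite direction to Irf8.

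The calls of Tnfsf8, Birc2, Traf1 and Irf7 were each lost without the donor term, without the mean-variance trend and with either ADAR2 WT culture left out (limma adjusted p up to 0.9497, for Traf1). Those of Birc2 and Traf1 were lost too with the empty-vector culture of donor A left out, and those of Birc2, Traf1 and Tnfsf8 among genes averaging 50 normalized counts or more.

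MYC partners and targets did not pass with ADAR2 WT. The 10 partners had a median of -0.0047, with Mxd1, a MYC antagonist, at -0.65 (SE 0.19, limma adjusted p = 0.183). The 20 target genes had a median of 0.098, against -0.0025 over all genes tested, with 14 positive and 6 negative. Ncl, the nucleolar protein nucleolin, was at 0.29 (limma adjusted p = 0.164). Of 6 measured genes of CD69 and lymphocyte egress none passed, with a median of -0.055.

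When the 4 libraries of the comparison of ADAR2 WT with empty vector were fitted alone, Cd44, Zfp36l2, Mxd1, Ncl and Plcg1 passed too (limma adjusted p from 2.29e-13 for Mxd1 to 0.00136 for Cd44). That fit called 1237 genes, against 122 with all 6 libraries, and had few libraries from which to estimate the spread of a gene.

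With ADAR2 E396A against empty vector no gene of the 9 lists passed. The list median was negative for 8 of the 9, as was the median over all genes tested (-0.0095). The medians ran from -0.10 for the egress genes to 0.0086 for the MYC partners. Irf7 came nearest at 0.57 (SE 0.10, limma adjusted p = 0.607). Between ADAR2 WT and ADAR2 E396A no gene of the 9 lists passed limma's test either. Tnfsf8 was 0.63 higher with ADAR2 WT and Tnfrsf9, the costimulatory receptor 4-1BB, 0.38 lower (limma adjusted p = 0.0787 for each). Both passed by DESeq2 (adjusted p = 5.29e-05 for Tnfsf8, 0.00157 for Tnfrsf9), without a filter (0.0169 and 0.0296) and narrowly with TMM factors (0.04985 and 0.0479). Cblb, 0.42 lower with ADAR2 WT (limma adjusted p = 0.191), passed by DESeq2 (adjusted p = 0.0483). In the 4 libraries of these groups alone, Tnfsf8, Tnfrsf9, Cblb, Mxd1 and Nfkb2 passed (limma adjusted p from 0.004265 for Tnfsf8 to 0.0446 for Nfkb2). That fit called 194 genes, against 10 with all 6 libraries. Of the 20 MYC target genes 18 were positive in this contrast (median 0.15, against 0.0044 over all genes) and none passed. The Myc difference was 0.049 (95% interval -0.096 to 0.19). These genes were measured in the same libraries, so their signs are not separate evidence, and MYC activity was not tested.

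**Figure D5:**
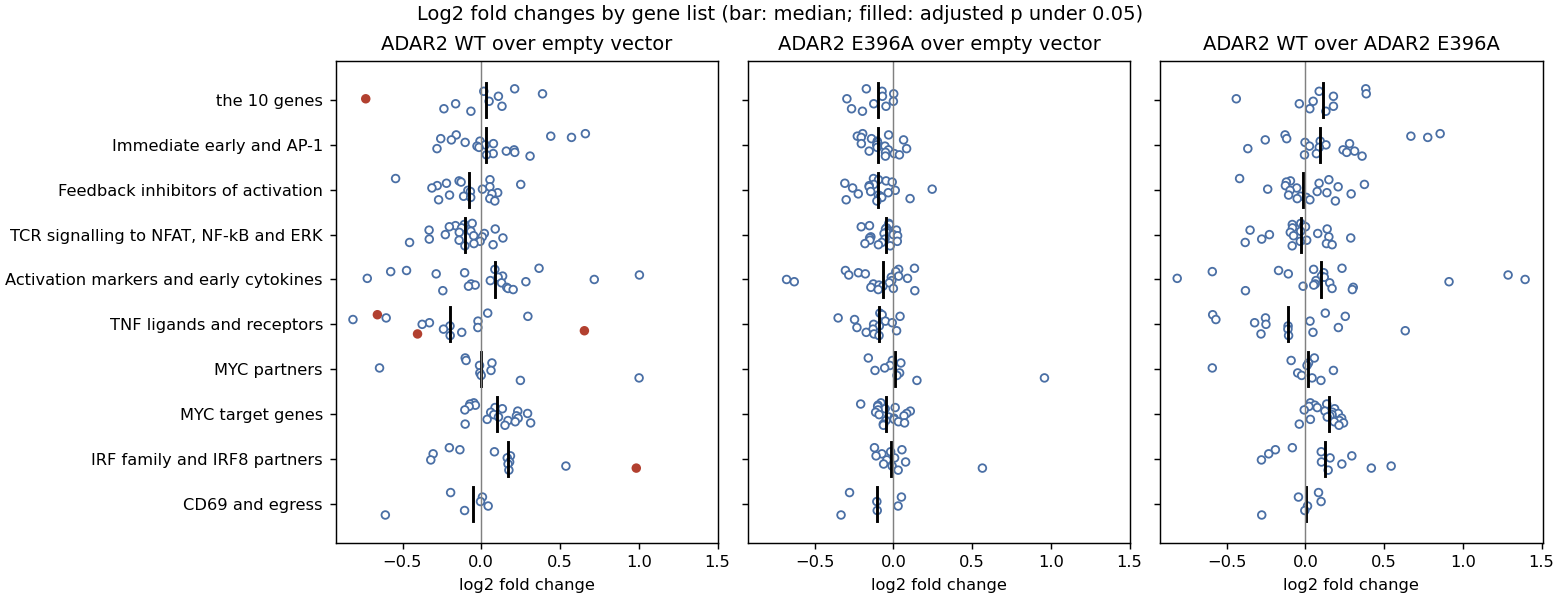
Log2 fold changes (horizontal axis) of the 10 genes and of the measured genes of 9 related lists, 1 point per gene, with black bars for medians and filled points for genes that passed limma's test. Filled points appear only with ADAR2 WT over empty vector, for Irf8, Birc2, Traf1, Tnfsf8 and Irf7.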

How the data were processed

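RNA abundance was measured in 6 libraries of ribosome-depleted RNA. The submitters' processing notes name STAR 2.6.1a, featureCounts, DESeq2 1.18.1 and mm10, and the sources used here give no strand setting. Of the 2 tables the authors deposited, each holds, per the file headers, DESeq2 means, log2 fold changes (signed from construct to empty vector, opposite to all fold changes here), standard errors, Wald statistics (a score) and p-values. Beside them stand deposited normalized counts of 4 libraries, a signal made of reads divided by 1 factor. Multiplying by it gave whole reads within 0.001 for 100% of values. The columns carry no group label: libraries common to the tables were read as empty vector, and ADAR2 WT and ADAR2 E396A follow the table names alone.

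Reads were scaled by median-of-ratios factors and filtered with filterByExpr, which kept 14958 genes. limma 3.58.1 in R 4.3.3 was run on log2 of the normalized count plus 1, fitting group and donor, with a mean-variance trend and Benjamini-Hochberg adjustment over all genes at 0.05. The plan made a count test the main one only for deposited raw counts, and the deposited columns were normalized values. The count test (edgeR 4.0.16) was therefore an alternative, as was DESeq2 1.42.0, and both were run on the recovered reads. Each donor pairing was refitted with DESeq2. The pairing used gave the authors' Wald statistics to within 0.0001, whereas no donor term left differences up to 6.67 and crossed donors up to 13.8.

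Named genes were the 10 members, Adarb1, up to 4 passing genes of each list (otherwise the gene of smallest p) and the 2 genes of most similar profile. Some genes under these rules are not reported here. Marker genes were named after their values were seen. The members and lists were chosen with earlier results of these data known. The mean-variance trend was adopted after a fit without it, which called 0 genes, had been seen. Promoter windows are RefSeq's, nearest the GENCODE start; Egr1 was not searched, and Egr3, Cd69 and Myc had no entry.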

Additional observations from a re-analysis of the deposited data

How the results depend on the processing

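Counts of passing genes moved widely with the setting, and with 2 cultures per group the pairing of donors carries much of the result. In the order ADAR2 WT against empty vector, ADAR2 E396A against empty vector and ADAR2 WT against ADAR2 E396A, limma called 122, 2 and 10 genes. Without the replicate block it called 2, 1 and 0 genes (732 at an unadjusted p under 0.05 in the last). Without the mean-variance trend limma called 0, 0 and 0 (1556, 757 and 1359 at an unadjusted p under 0.05). The trend of the main fit was adopted after that result had been seen. For the first comparison edgeR called 127 genes and DESeq2 214. DESeq2 called 214, 7 and 109, no filter gave 220, 5 and 102, and fitting only the 4 libraries compared gave 1237, 1 and 194. A mean of at least 50 normalized counts gave 58 and 3 in the first and last comparisons, and TMM factors 39 in the last. Leaving out 1 library gave 1 to 1217, 1 to 127 and 0 to 844 genes.

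Among the members, 1 passed with ADAR2 WT against empty vector, 0 without the replicate block, without the trend or at a mean of at least 50, and 2 with the 4 libraries alone (Egr2 and Irf8). Between the constructs the 4 libraries alone gave 1, Irf8. With 1 library left out, 0 to 2, 0 to 1 and 0 to 3 members passed. Irf8 itself passed in 10 of 16 alternatives with ADAR2 WT, always with a negative fold change. The Egr2 log2 fold change with ADAR2 E396A was -0.0053 by edgeR and -0.00089 by DESeq2.

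With 1 library left out, some log2 fold changes near 0 turned. With ADAR2 WT, Egr1 ran from -0.020 to 0.054, Egr3 from -0.020 to 0.24 and Tnf from -0.16 to 0.026. With ADAR2 E396A, Nr4a1 ran from -0.25 to 0.010, Egr1 from -0.14 to 0.0028, Egr2 from -0.34 to 0.35, Egr3 from -0.19 to 0.055, Cd69 from -0.34 to 0.00091 and Myc from -0.048 to 0.050. Between the constructs Nr4a1 ran from -0.17 to 0.092 and Nr4a3 from -0.023 to 0.075. The cause of these moves was not tested. A left-out library leaves its group with 1, assumed to vary like the others.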
